A study of Mus musculus with 11 samples.

Results

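The uncoupling proteins Ucp1, Ucp2 and Ucp3 are carriers of the inner mitochondrial membrane, and their genes were followed here through the conversion of mouse preadipocytes into white-like or beige adipocytes. The 3 genes were taken by symbol from 29955 gene symbols with a representative sense-strand transcript, and all 3 were found. RNA-seq was done on 11 samples of im-scWAT cells, a preadipocyte line made from inguinal subcutaneous white fat of the mouse with SV40 large T antigen. All values are FPKM, the number of fragments scaled to exon length and to mapped depth, which can be compared between genes because it is divided by length.

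The time course comprised 6 untransduced samples. The cells were induced at confluence with indomethacin, dexamethasone, isobutylmethylxanthine, insulin and T3 and then kept in insulin and T3, either with 0.5 μM rosiglitazone (ROS), a ligand of the nuclear receptor PPARγ, or without it. One sample was taken at day 4 and 1 at day 8 of each treatment. Both day 0 samples, labelled ROS plus (sample 1) and ROS minus (sample 2), were used as 1 group because induction starts at day 0. The other 5 samples were cells that carried an shRNA against mouse Jmjd1a (Kdm3a), a histone H3K9 demethylase, expressed human JMJD1A (hJMJD1A) from a retroviral LTR, and were taken at day 8 of differentiation with ROS. There were 2 WT-hJMJD1A samples (A and B) and 1 each of S265A-hJMJD1A, which removes a phosphorylated serine, S265D-hJMJD1A, which mimics the phosphorylated form, and S265D-H1120Y-hJMJD1A, which adds a change at an iron-binding residue of the catalytic site. The shRNA ran from the U6 promoter, the transduced cells were drug-selected, and no sample holds shRNA alone or an unrelated shRNA. The labels do not say whether the paired samples were separate cultures, so p-values measure only the spread between these samples. The label protocol removes ROS at day 7 unless otherwise stated, whereas the methods of the study keep it until day 8.

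Ucp1 is the protein of brown and beige adipocytes that lets protons return to the mitochondrial matrix without making ATP, so that fatty acid oxidation yields heat. Long-chain fatty acids activate it and purine nucleotides inhibit it. Ucp2, found in many tissues, and Ucp3, known mostly from skeletal muscle and brown fat, are close relatives whose transport roles are less settled and which are not held to be the main source of adaptive heat. Ucp1 is the usual marker of browning in subcutaneous white fat.

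Levels of the 3 genes separated by day, treatment and gene. Ucp2 was detected in all 11 samples and its FPKM was at least 1 in each. Ucp1 reached an FPKM of 1 in 3 samples and Ucp3 in 6. The total of the 3 FPKM values was 2.29 and 2.82 at day 0 and 28.9 at day 8 with ROS, against 9.50 at day 8 without ROS. Total mapped sequence was 3.10 to 5.29 Gb per sample. A base count of 100 was taken as about 1 read, because low counts in the files lie near multiples of 100.

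**Figure D1:**
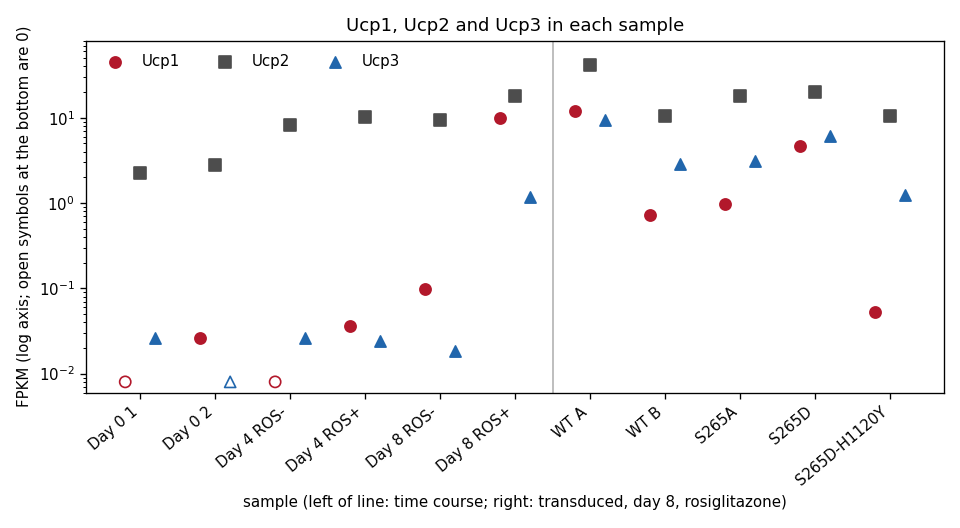
FPKM of Ucp1 (circles), Ucp2 (squares) and Ucp3 (triangles) on a log axis in each of the 11 samples, with values of 0 drawn as open symbols at the bottom. Ucp2 lies between 2.27 and 41.4 in every sample, whereas Ucp1 and Ucp3 are under 0.1 in all time-course samples other than day 8 with ROS.

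Ucp1 lies on mm9 chr8:85814247-85822355 with 6 exons and 1644 exonic bases. Ucp3 lies on chr7:107621500-107634941 with 2448 exonic bases, and Ucp2 follows it on the same chromosome and strand at chr7:107641854-107650682, with 6912 bases between them. The Ucp2 transcript of the files counts 4133 exonic bases. GENCODE vM1 also annotates a Ucp2 transcript of 1118 bases with 7 exons, so the FPKM of Ucp2, and its rank against the other 2, depends on the model used. The ratio of Ucp2 FPKM between samples is free of that length.

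RefSeq promoters (GRCm38.p6, from 250 bases before to 50 after the start) were found for all 3 genes and matched the mm9 genome letter for letter. They are given here because all 3 genes had their highest level of the time course at day 8 with ROS. All are printed 5′ to 3′ on the plus strand, the strand of the 3 genes. Capitals mark 5 motifs searched on both strands, namely the nuclear receptor hexamer AGGTCA, the cAMP response element core TGACG, the TATA box core TATAAA, the CAAT box (CCAAT) and the GC box GGGCGG, and no matches overlapped.
Ucp1 (chr8:85813997-85814296): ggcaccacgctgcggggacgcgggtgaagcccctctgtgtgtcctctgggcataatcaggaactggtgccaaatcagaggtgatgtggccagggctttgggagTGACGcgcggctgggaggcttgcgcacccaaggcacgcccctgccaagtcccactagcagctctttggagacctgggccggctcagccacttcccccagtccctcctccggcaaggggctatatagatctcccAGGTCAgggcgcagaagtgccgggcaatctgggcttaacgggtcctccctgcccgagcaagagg
Ucp2 (chr7:107641617-107641916): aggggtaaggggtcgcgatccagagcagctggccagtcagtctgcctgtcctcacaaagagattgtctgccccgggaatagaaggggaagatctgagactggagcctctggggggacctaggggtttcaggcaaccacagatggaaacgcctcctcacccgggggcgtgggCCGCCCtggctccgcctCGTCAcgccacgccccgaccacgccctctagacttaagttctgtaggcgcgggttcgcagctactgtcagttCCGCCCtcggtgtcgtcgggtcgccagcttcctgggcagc
Ucp3 (chr7:107621250-107621549): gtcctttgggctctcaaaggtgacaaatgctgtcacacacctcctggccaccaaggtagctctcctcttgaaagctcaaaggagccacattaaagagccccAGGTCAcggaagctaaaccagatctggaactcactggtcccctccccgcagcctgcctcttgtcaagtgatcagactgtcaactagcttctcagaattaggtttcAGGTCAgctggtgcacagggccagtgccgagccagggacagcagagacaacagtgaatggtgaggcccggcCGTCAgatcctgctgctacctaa

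The Ucp1 window held 1 nuclear receptor hexamer, the Ucp3 window 2 and the Ucp2 window none. Each window held 1 cAMP response element core, and that of Ucp2 also held 2 GC boxes. Among 32851 promoters of the same length, AGGTCA occurred in 16.3%, the cAMP response element core in 20.8%, the GC box in 35.7%, the CAAT box in 37.4% and the TATA box core in 13.6%. PPARγ binds, with RXR, 2 copies of the hexamer in the same direction with 1 base between them. The closest such match in the 5000 bases before the GENCODE start had 2 mismatches for Ucp1 and Ucp3 and 3 for Ucp2, and 51.6% of 22380 protein-coding genes had a match with at most 2. The Ucp3 match lay 38 bases before the start and the Ucp1 match 4564 bases before it. Both are shown on the strand of the match, with the matched 13 bases in capitals and 10 bases on each side.
Ucp1 (chr8:85809671-85809683, minus strand): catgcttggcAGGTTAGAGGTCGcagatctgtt
Ucp3 (chr7:107621449-107621461, plus strand): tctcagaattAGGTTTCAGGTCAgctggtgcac

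Ucp1 appeared late and with ROS. Its FPKM was 0 and 0.0261 at day 0, 0.0360 at day 4 with ROS, 0 at day 4 without ROS, 9.90 at day 8 with ROS and 0.0970 at day 8 without ROS. Day 8 with ROS thus stood alone, and the 5 other untransduced samples held at most 7 reads each. In bulk RNA, fewer cells that express a gene and less of its RNA per cell cannot be told apart. A count of 0 allows an FPKM of up to 0.0391 in day 0 sample 1 and up to 0.0588 at day 4 without ROS. The ROS effect at day 8 was 102-fold, from about 827 and 7 reads, with a 95% interval of 49.3 to 255 (exact binomial, counting error only). On the log2(FPKM + 0.1) scale it was 5.67 ± 0.25 (SE; limma adjusted p = 0.0972), the highest of 12493 genes whose FPKM reached 1 in either sample. Ucp1 entered that ranking only through the sample with ROS, so it could only rank as higher there. The size of a log2 difference from a level near 0 depends on the pseudocount, and it was 3.31 with a pseudocount of 1 and 6.53 with 0.01.

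Ucp3 followed the same course at a lower level. Its FPKM was 0.0260 and 0 at day 0, 0.0241 at day 4 with ROS, 0.0263 at day 4 without ROS, 1.17 at day 8 with ROS and 0.0186 at day 8 without ROS. Only the day 8 sample with ROS held more than 3 reads, and the 0 at day 0 allows an FPKM of up to 0.0264. The ROS effect at day 8 was 63.1-fold, from about 146 and 2 reads, with a counting interval of 17.1 to 526. The log2 difference was 3.42 ± 0.25 (SE; limma adjusted p = 0.0972), the 16th of the 12493 genes, and it was 1.09 with a pseudocount of 1 and 5.37 with 0.01. Ucp3 too entered that ranking only through the sample with ROS.

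Ucp2 behaved otherwise. Its FPKM was 2.27 and 2.79 at day 0, 10.1 at day 4 with ROS, 8.31 at day 4 without ROS, 17.8 at day 8 with ROS and 9.38 at day 8 without ROS. Both day 0 samples were lowest, and day 4 and day 8 without ROS lay close together. Ucp2 rose between day 0 and day 4 with ROS by 1.97 ± 0.19 on the log2 scale (SE; limma adjusted p = 0.0373) and without ROS by 1.68 ± 0.19 (adjusted p = 0.0470, limma). Day 8 against day 0 gave 2.78 ± 0.19 with ROS (adjusted p = 0.0221, limma) and 1.86 ± 0.19 without it (adjusted p = 0.0399, limma). The ROS effect on Ucp2 at day 8 was 1.90-fold, a log2 difference of 0.92 ± 0.22 that did not pass (adjusted p = 0.168, limma).

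Calls for the 3 genes are given beside those for all genes tested. Ucp2 passed the minimum FPKM of 0.1 in every sample. Ucp1 and Ucp3 passed it in the time course only through day 8 with ROS, so that they had to be higher there. Against day 0, limma called 1 of the 3 higher at day 4 in each treatment, where 17.1% of 16400 genes were called higher with ROS and 15.2% without it. At day 8 with ROS all 3 were called higher, against 21.8% of genes, with log2 differences of 6.48 for Ucp1 (adjusted p = 0.0164) and 3.50 for Ucp3 (adjusted p = 0.0205). At day 8 without ROS, 1 of 3 was called, against 20.6%. Only the day 0 pair supplied the spread for these tests, with 1 residual degree of freedom. Ucp1 and Ucp3 were near 0 in that pair, so it says nothing of how far they vary between samples at day 8 levels. No call against day 0 on the members held in a joint fit of all 11 samples, where WT A and WT B add to the spread. Nor did any hold when that joint fit was run without 1 day 0 sample, which leaves WT A and WT B as the only pair.

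By FPKM alone, a 2-fold change was counted among genes whose FPKM reached 0.1 in either group. Ucp1 and Ucp3 were past 2-fold higher with ROS at day 8, as were 4.00% of 15536 genes, whereas Ucp2, the only member with enough signal at day 4, was not past it there, where 2.20% of genes were. Limma called 0 genes (0.00%) at day 8, with 5011 genes at an unadjusted p under 0.05. From day 4 to day 8 with ROS, Ucp1 and Ucp3 were past 2-fold higher, against 6.62% of genes. The Ucp1 ratio there was 275 (counting interval 93.8 to 1340, with 3 reads at day 4) and the Ucp3 ratio 48.7 (16.3 to 239, also with 3 reads). Without ROS, Ucp2, the only member with enough signal, was not past 2-fold, against 9.60% of genes. From day 0 to day 4, Ucp2 alone was past 2-fold higher among members with enough signal, 4.00-fold with ROS and 3.28-fold without, against 18.0% and 18.7% of genes. From day 0 to day 8 with ROS, all 3 were, against 20.4%, and Ucp2 was 7.05-fold higher.

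The ROS effect at day 8 minus that at day 4 was 5.22 ± 0.35 for Ucp1, 3.45 ± 0.35 for Ucp3 and 0.64 ± 0.31 for Ucp2 (log2, SE). The limma interaction did not pass for any of them, with adjusted p = 0.256 for Ucp1 and Ucp3 and 0.430 for Ucp2. Across all genes the median ROS effect at day 8 was -0.20 on the log2 scale. After median-ratio scaling, the ROS effects at day 8 were 5.79 for Ucp1, 3.50 for Ucp3 and 1.11 for Ucp2.

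The make-up of uncoupling protein mRNA changed with these levels. Ucp2 made up 98.8% or more of the summed FPKM in the 5 samples before day 8 or lacking ROS. With ROS at day 8 its share was 61.7%, with 34.3% for Ucp1 and 4.06% for Ucp3. In WT A the shares were 65.8% Ucp2, 19.3% Ucp1 and 14.9% Ucp3. In S265D they were 64.9%, 15.3% and 19.8%. WT B and S265A held little Ucp1, 5.14% and 4.38%, and S265D-H1120Y 0.451%. Among the 6 samples at day 8 with ROS, Ucp1 exceeded Ucp3 in the untransduced sample, 8.44-fold, and in WT A, 1.29-fold, and Ucp3 was the higher in the other 4.

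**Figure D2:**
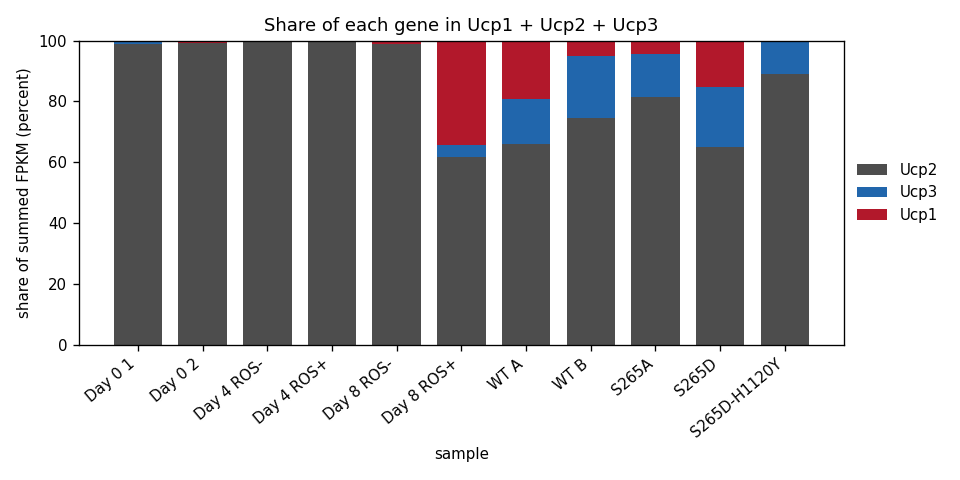
Share of Ucp2, Ucp3 and Ucp1 in their summed FPKM, in percent, as stacked bars for each sample. Ucp2 takes nearly the whole bar in the 5 samples before day 8 or lacking ROS, and 61.7% to 89.1% in the 6 samples at day 8 with ROS.

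The 2 WT-hJMJD1A samples differed widely for all 3 genes, which limits what the mutant comparisons can show. In sample order, S265A follows WT A, and S265D and S265D-H1120Y follow WT B. The labels do not say whether A and B were controls for separate mutants. Spread between replicates and a difference between sets of samples therefore cannot be told apart. Ucp1 was 12.1 in WT A and 0.724 in WT B, a mean of 6.41 ± 8.04 (SD, n = 2) and a 16.7-fold gap. Ucp2 was 41.4 and 10.5, a mean of 25.9 ± 21.8 (SD, n = 2) and a 3.94-fold gap. Ucp3 was 9.37 and 2.88, a mean of 6.12 ± 4.59 (SD, n = 2) and a 3.25-fold gap. All 3 were past 2-fold higher in WT A, against 10.8% of 15837 genes. The day 0 pair differed 1.23-fold for Ucp2.

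Markers of cell state moved between the same samples. The summed FPKM of 8 beige and brown markers was 323 (WT A) and 110 (WT B), and that of 7 preadipocyte and fibroblast markers 299 and 758. Most of the gap between the latter sums was Ly6a, at 116 and 496. Of these 7, 3 were past 2-fold lower in WT A and 0 higher, against 16.4% and 10.8% of genes. General adipocyte markers summed to 14840 and 28543, but Fabp4, a fatty acid binding protein, made up most of that sum at 12393 and 26902. The list median was a log2 difference of 0.67, higher in WT A, with Adipoq at 978 and 738, Plin1, a lipid droplet protein, at 293 and 158 and the transcription factor Cebpa at 150 and 83.3. Macrophage markers summed to 5.13 and 16.7, nearly all of it Cd68, with Emr1 and Ptprc at 0 in both. Skeletal muscle markers summed to 17.1 and 23.5, nearly all of it Acta1 (1.40 and 19.3) and Mb (15.7 and 4.08). The part of these differences in the Ucp levels was not tested.

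With S265A, Ucp1 was 0.972, Ucp2 18.1 and Ucp3 3.13. With S265D, Ucp1 was 4.67, Ucp2 19.9 and Ucp3 6.06. All 6 values lay between WT A and WT B. S265A against WT gave log2 differences of -1.56 ± 2.01 for Ucp1, -0.21 ± 1.07 for Ucp2 and -0.72 ± 0.93 for Ucp3 (SE, limma adjusted p = 1 for each). Against WT A alone the S265A ratio was 0.0803 for Ucp1, 0.437 for Ucp2 and 0.334 for Ucp3, and against WT B alone 1.34, 1.72 and 1.09. By mean FPKM, Ucp1 was past 2-fold lower in S265A than in WT, as were 6.40% of genes, and that direction was opposite against WT B. S265D against WT gave 0.59 ± 2.01 for Ucp1, -0.07 ± 1.07 for Ucp2 and 0.21 ± 0.93 for Ucp3 (SE, limma adjusted p = 1 for each). The S265D ratio to WT A and WT B was 0.387 and 6.45 for Ucp1, 0.480 and 1.89 for Ucp2, and 0.647 and 2.10 for Ucp3.

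S265D exceeded S265A 4.81-fold for Ucp1, 1.94-fold for Ucp3 and 1.10-fold for Ucp2, so that 1 of 3 was past 2-fold higher, against 7.45% of genes. None of these ratios was larger than the ratio of the 2 WT samples for the same gene. The Ucp1 log2 difference was 2.16 ± 2.32 (SE, limma adjusted p = 1).

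S265D-H1120Y had the lowest level of each of the 3 genes among the 5 transduced samples, with an FPKM of 0.0528 for Ucp1, 10.4 for Ucp2 and 1.23 for Ucp3. It was the lowest of the 5 for 23.6% of 16402 genes. All 3 members were past 2-fold lower than the WT mean, against 9.16% of genes. Ucp2, however, was only 1.01-fold below WT B, whereas Ucp1 and Ucp3 were 0.0729 and 0.427 times WT B. Against S265D, which by its label differs by the H1120Y change alone, Ucp1 and Ucp3 were past 2-fold lower, as were 8.66% of genes. Ucp1 was under the minimum FPKM of 0.1 in S265D-H1120Y. It thus entered both 2-fold counts only through S265D or WT, and could only be counted as lower. The Ucp1 ratio of S265D to S265D-H1120Y was 88.6, from about 381 and 4 reads, with a counting interval of 34.3 to 327. That of Ucp3 was 4.93 (4.11 to 5.96) and that of Ucp2 1.91. The Ucp1 and Ucp3 ratios were larger than the 16.7-fold and 3.25-fold gaps between the WT samples, and the Ucp2 ratio was smaller than its 3.94-fold gap.

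Limma called none of these differences. The S265D-H1120Y minus S265D log2 differences were -4.97 ± 2.32 for Ucp1, -2.21 ± 1.07 for Ucp3 and -0.92 ± 1.24 for Ucp2 (SE, adjusted p = 1 for each), and 0 of 16402 genes (0.00%) were called, with 187 at an unadjusted p under 0.05. The fit again had 1 residual degree of freedom, from WT A and WT B. General adipocyte markers summed to 15283 in S265D-H1120Y and 24456 in S265D, mostly as Fabp4, and the list median was a log2 difference of -0.60, with Retn and Cebpa past 2-fold lower. Macrophage markers summed to 22.0 and 10.5, nearly all of it Cd68 (21.7 and 10.3), with Emr1, Ptprc and Itgam at 0 in both. Their part in the Ucp levels was not tested.

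**Figure D3:**
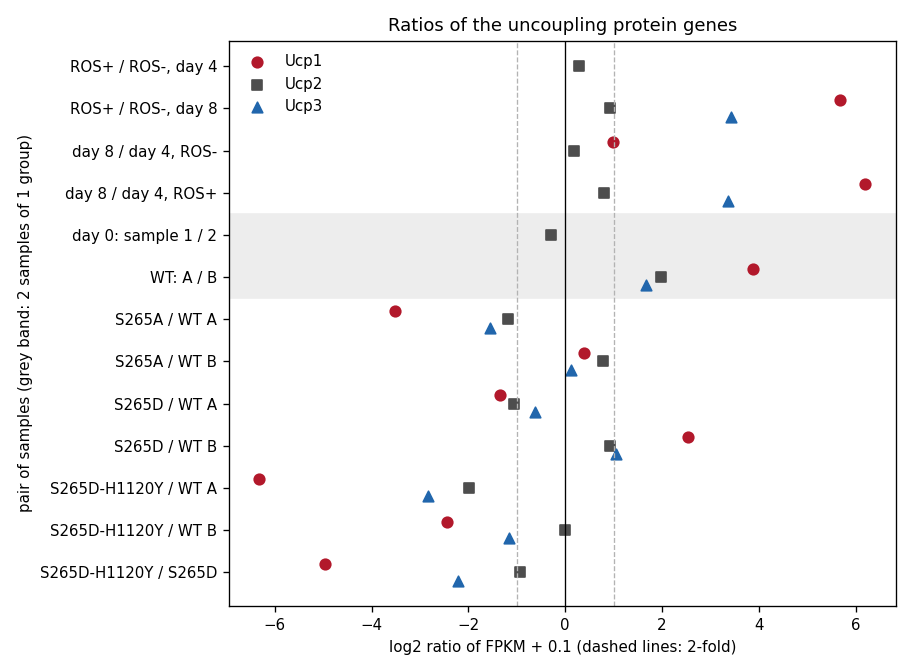
Log2 ratio of FPKM + 0.1 for each pair of samples, with dashed lines at 2-fold and a grey band on the pairs within 1 group; pairs in which neither sample held more than 3 reads are left out. The Ucp1 ratio of WT A to WT B, 3.89, is larger than every Ucp1 ratio of S265A or S265D to a WT sample, and the ratios to WT A and to WT B point opposite ways for both mutants.

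The knockdown could not be checked from Kdm3a. Its FPKM was 13.0 to 28.5 in the transduced samples and 15.1 to 23.2 in the untransduced ones, and reads from the human cDNA were not separated from it here.

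All 5 transduced samples had more Ucp3 than the untransduced day 8 sample with ROS, at 1.05 to 7.99 times its level, which held for 28.6% of 16494 genes. Ucp1 was 1.22 times the untransduced level in WT A and 0.00533 to 0.472 times in the other 4. Ucp2 ranged from 0.585 to 2.32 times it. By the WT mean, 1 of 3 members, Ucp3, was past 2-fold higher than in untransduced cells, against 18.0% of genes. Transduction, shRNA and hJMJD1A are carried together and cannot be told apart, and the 1 untransduced sample gives no spread.

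In order of level, Ucp1 ran from WT A through untransduced day 8 with ROS, S265D, S265A and WT B to day 8 without ROS, and then to S265D-H1120Y and the samples of days 4 and 0. Ucp3 ran from WT A through S265D, S265A, WT B and S265D-H1120Y to untransduced day 8 with ROS, and the next sample was 44.6-fold lower. For Ucp2, S265D, S265A and untransduced day 8 with ROS followed WT A, and the next 5 samples lay between 8.31 and 10.5. Apart from the 44.6-fold step, and where a ratio could be formed, no neighbours in these orders differed by more than the gap between the 2 WT samples of the same gene.

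Over the 11 samples, Pearson's r of log2(FPKM + 0.1) was 0.80 between Ucp1 and Ucp2, 0.83 between Ucp1 and Ucp3 and 0.79 between Ucp2 and Ucp3. Over the 7 samples of day 8 it was 0.85, 0.65 and 0.72. These samples share days and treatments. Among 13615 genes whose FPKM reached 1 in any sample, the 5 most like Ucp1 were Rdh16 (r = 0.99), Rdh18-ps (0.97), Cpt1b (0.95), Ndufa3 (0.94) and Cidea (0.92). Rdh16 and Rdh18-ps, a retinol dehydrogenase gene and a pseudogene of that family, lie side by side and may share reads. Cpt1b, which passes long-chain fatty acids into mitochondria, ran from 0.949 to 76.4, and Cidea, a lipid droplet protein of brown and beige fat, from 0 to 43.4. The nearest to Ucp2 were Cbr1 and AK079699 (0.99 each), Fastk (0.99), Efna5 (0.98) and Leng1 (0.98). Those nearest to Ucp3 were Slc22a14, Elac1, Pigr, Acaa1b and Oscar (0.96 each). Acaa1b, a peroxisomal thiolase, ran from 2.03 to 164.

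The genes beside the members did not share 1 pattern. Tbc1d9, left of Ucp1, was 2.65 and 2.64 at day 0 and 0.275 to 1.07 in the other samples. Elmod2, right of Ucp1, was 2.50 and 1.97 at day 0, 13.3 and 13.4 at day 4, 12.4 at day 8 with ROS and 8.13 without. In transduced cells it was 8.12 in S265D-H1120Y to 20.2 in S265D. C2cd3, a ciliary gene left of Ucp3, was 4.24 to 5.09 in the time course and 2.35 to 3.47 in transduced cells. Dnajb13, right of Ucp2, was at most 0.103 in the time course and 0.133 to 0.703 in transduced cells. All 5 transduced samples lay below the untransduced day 8 sample with ROS for C2cd3, as for 22.8% of 16494 genes. For Dnajb13 all 5 lay above it, as for 28.6%. The share of genes separated from the whole time course was not counted.

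AK040808, a transcript that the files class as antisense, spans chr7:107595247-107623350 and overlaps the first bases of Ucp3. C2cd3 ends 2831 bases before Ucp3, so the AK040808 span also overlaps C2cd3. Its FPKM was 0 and 0.0282 at day 0, 0.106 and 0.0979 at day 4 with and without ROS, 0.616 at day 8 with ROS and 0.10 without. In transduced cells it was 0.474 to 1.03, highest in WT A and lowest in S265D-H1120Y. Its 6 highest samples were the 6 with the most Ucp3. The files give no strand for it. The antisense row of Ucp3 itself held at most 396 bases, and whether AK040808 shares reads with Ucp3 or C2cd3 was not tested.

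**Figure D4:**
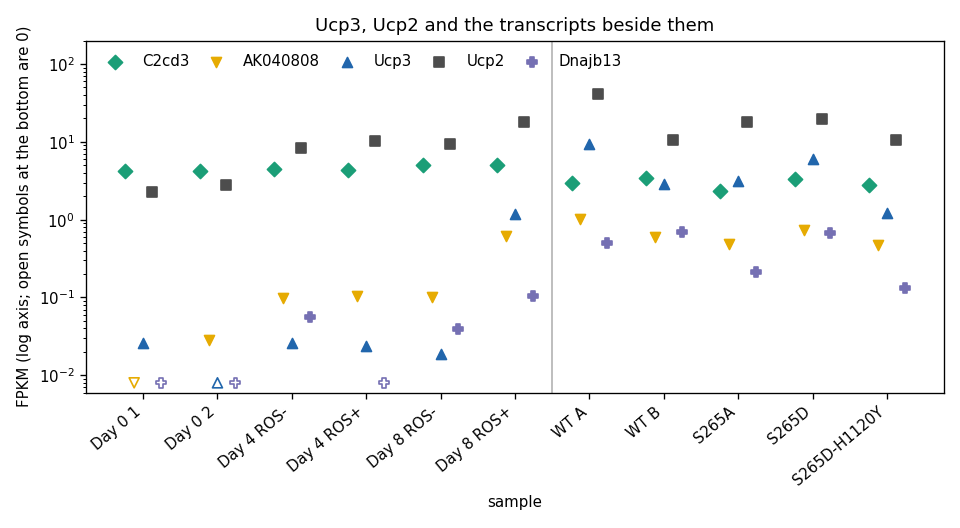
FPKM of C2cd3, AK040808, Ucp3, Ucp2 and Dnajb13, in their order along the chromosome, on a log axis for each sample, with 0 drawn as an open symbol at the bottom. The span of AK040808 overlaps both C2cd3 and Ucp3. C2cd3 stays between 2.35 and 5.09, while Ucp3 and AK040808 are high in the same 6 samples.

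Related mitochondrial carriers were counted in the same way. Of 12 carriers listed, 11 had enough signal at day 8, and 1 was past 2-fold higher and 0 lower, against 4.00% higher and 15.2% lower among all genes. Their median log2 ratio was 0.18, against -0.21 over all genes. Slc25a34, a poorly known carrier, was 4.66-fold higher, and Slc25a20, which exchanges carnitine for acylcarnitine, 1.89-fold. Slc25a14 and Slc25a35 were lowest at 0.665 and 0.720. The adenine nucleotide carriers Slc25a4 and Slc25a5, which also conduct protons, had FPKM values of 269 and 778 at day 8 with ROS and 237 and 492 without, above every Ucp value in the same samples. Against S265D, S265D-H1120Y had 0 carriers past 2-fold, with Slc25a10 at 0.602, Slc25a20 at 0.655, Slc25a4 at 1.11 and Slc25a30 at 1.24.

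Among 24 regulators of the Ucp genes, 22 had enough signal for the ROS effect at day 8, and 4 were past 2-fold higher and 0 lower, against the same 4.00% and 15.2% (median log2 0.24). Ppara, a fatty acid receptor of the PPAR family, was 4.28-fold higher, at 9.77 against 2.28. Prdm16, a cofactor of brown fat genes, was 7.57-fold higher but at an FPKM of only 0.14 with ROS. Pparg and Ppard were lowest, at ratios of 0.604 and 0.645. In S265D-H1120Y against S265D, 4 of 22 were past 2-fold lower, against 8.66% of genes, led by the β-adrenergic receptors Adrb1 at 0.180 and Adrb3 at 0.256. Adrb1 had an FPKM of only 0.0520 against 0.289, and Adrb3 had 2.47 against 9.65. The highest were Kdm3a at 1.24 and Zfp516 at 1.29.

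Most genes that supply fatty acids to uncoupled mitochondria were higher with ROS by FPKM. Of 17 genes of fatty acid uptake, release and oxidation, 12 were past 2-fold higher at day 8 and 0 lower, against 4.00% and 15.2% of all genes, with a median log2 ratio of 1.11. Fabp3, a fatty acid binding protein, was 37.0-fold higher, from an FPKM of only 0.0712 without ROS, and Pdk4, a kinase that spares glucose, 13.9-fold. The lowest were Cpt1a at 0.866 and Lpl at 1.23. In S265D-H1120Y against S265D, 4 were lower and 1 higher, against 8.66% and 5.62% of genes (median -0.75 against -0.05 over all genes), from Cpt1b at 0.291 and Pdk4 at 0.371 to Acot1 at 1.81 and Fabp3 at 4.39. Between WT A and WT B, 5 were past 2-fold higher in A and 2 lower, against 10.8% and 16.4% of genes, with Cpt1b at 10.9-fold and Fabp3 at 15.0-fold at the top and Fabp4 at 0.461 and Lpl at 0.478 at the bottom. Limma called 0 genes of any list in the ROS comparison at day 8. At day 4 against day 0 with ROS it called 7 carriers higher and 2 lower of 11, 17 regulators higher and 0 lower of 22, and 15 fuel genes higher and 2 lower of 17. Among all 16400 genes it called 17.1% higher and 17.6% lower in that comparison, 5690 genes in total, which fell to 442 in the joint fit and to 0 in that fit without either day 0 sample.

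**Figure D5:**
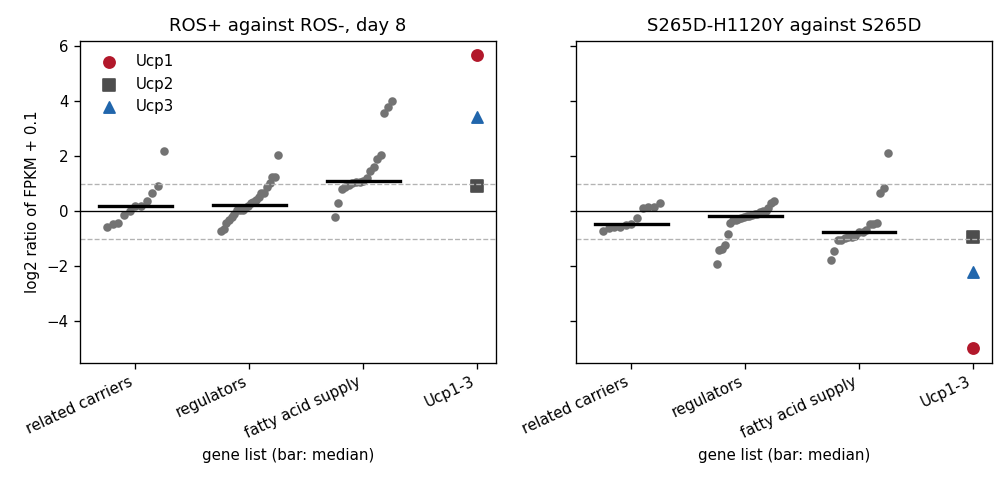
Log2 ratio of FPKM + 0.1 for each gene of the 3 lists (grey, with the median as a bar) and for Ucp1, Ucp2 and Ucp3, for ROS at day 8 (left) and for S265D-H1120Y against S265D (right). The medians are 0.18, 0.24 and 1.11 on the left, and Ucp1 lies outside the range of every list in both panels.

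The cells carried the markers of adipocytes. Adipoq, which encodes adiponectin, was 0.12 or less at day 0 and at least 396 in the differentiated samples, and general adipocyte markers summed to 268 and 269 at day 0 and 11080 to 34764 later. The 8 beige and brown markers summed to 373 at day 8 with ROS, 93.9 without and at most 30.5 earlier, and 110 to 331 in transduced cells. The preadipocyte and fibroblast list summed to 911 and 985 at day 0, 190 at day 8 with ROS and 773 without, mostly as Ly6a and Col1a1. Ly6a was 424 and 484 at day 0, 108 at day 8 with ROS and 495 without, and Col1a1 412, 420, 47.1 and 170. Compared with day 0, 0 of the 7 were past 2-fold higher and 5 lower at day 8 with ROS, against 20.4% and 24.3% of genes. Without ROS, 2 were higher (Pdgfra and Dpt) and 3 lower, against 21.5% and 13.6%. The classical brown lineage list summed to between 1.93 and 6.46, with Zic1 at 0 in all samples. Lhx8 and Mpzl2 made up these sums and moved differently. Mpzl2 was 0 in both day 0 samples, 3.25 at day 8 with ROS, 1.23 without and 1.71 to 6.41 in transduced cells. Lhx8 was 2.11 and 1.93 at day 0 and 4.54 and 5.41 at day 4 with and without ROS. At day 8 Lhx8 was 1.43 with ROS, 2.33 without and 0.0545 to 1.59 in transduced cells. Macrophage markers summed to 0.602 to 22.0, mostly as Cd68, with Emr1 and Ptprc at 0, and endothelial markers to 0.353 to 4.01. Skeletal muscle markers summed to 0.341 to 23.5, mostly as Acta1 and Mb, with Ckm, Myh4 and Myod1 at 0. Lep, a marker of mature white fat, was at most 0.25.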

How the data were processed

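RNA-seq of 11 samples was analysed from the deposited tables. In the study, total RNA was made into TruSeq libraries and sequenced on a HiSeq, reads were aligned with BWA to UCSC transcripts and to mm9, and the authors computed strand-specific FPKM for each UCSC transcript; versions are not given in the sources used here. The deposited files hold FPKM and, as a coverage signal, the mapped bases of each transcript. The 3 genes and the gene lists were chosen with earlier results of these data known. For each symbol the representative sense row was used. Samples were grouped by the labels. Log2(FPKM + 0.1) was tested with limma 3.58.1 in R 4.3.3, separately for 6 time-course and 5 transduced samples, on genes whose FPKM reached 0.1 in any sample, with Benjamini-Hochberg adjusted p under 0.05 as the threshold. No test of the RNA-seq is stated in the study, which counts 2-fold changes. That count was made among genes whose FPKM reached 0.1 in either group, with pairs averaged. The fit was tested on simulated data. Named genes were the members, their neighbours on each side, the 5 genes most like each (Pearson's r over 11 samples), Kdm3a and the 2 highest and 2 lowest members of each list. Slc25a4, Slc25a5, AK040808 and the named markers were added after their values were seen. Mapped totals of 3.10 to 5.29 Gb make an FPKM of a few hundredths a matter of 1 to 3 reads. Alternatives were other pseudocounts, minimum FPKM, transcripts, scaling, a joint fit, leaving out samples and, added later, the ROS arm as a block. Python 3.11.15 was used for the remaining steps.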

Additional observations from a re-analysis of the deposited data

Results flagged for a closer look

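The ROS effect on Ucp3 had opposite signs at the 2 time points, -0.03 at day 4 and 3.42 at day 8 on the log2 scale, a difference of 3.45 ± 0.35 (SE, limma adjusted p = 0.256) from 1 sample per arm. At day 4 both samples held at most 3 reads.

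The antisense row of Ucp2, which no comparison used, had an FPKM of 0 and 0.00516 at day 0. In the other untransduced samples it was at most 0.0355. In the 5 transduced samples it was 0.0419 to 0.184, all above the untransduced day 8 sample with ROS at 0.0238. How many antisense rows separate in this way was not counted. Among sense rows, all 5 transduced samples lay above that sample for 28.6% of 16494 genes. The Ucp2 antisense row held 0.400% to 0.738% of the bases of both Ucp2 rows in transduced cells and at most 0.377% in the others. Over all genes the antisense rows held 1.92% to 2.07% of the bases in transduced cells and 1.52% to 2.28% in the others. Dnajb13, whose gene lies 846 bases beyond Ucp2, had an FPKM of 0.133 to 0.703 in the same cells.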

How the results depend on the processing

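Of 504 values recomputed for the 3 genes over 14 comparisons and 12 alternatives, 467 kept their direction and their side of the threshold. With a minimum FPKM of 1, the day 8 ROS effects on Ucp1 (5.67) and Ucp3 (3.42) passed, both with limma adjusted p = 0.0466. In that setting 895 of 13159 genes were called in place of 0 of 16400, and the cause was not tested. Both genes reached that minimum in the time course only through day 8 with ROS, so they could only come out higher there. With all 11 samples in 1 fit no call against day 0 on the members held, at unchanged log2 differences of 1.97, 1.68, 2.78 and 1.86 for Ucp2, 6.48 for Ucp1 and 3.50 for Ucp3, and genes called fell to 442 and 251 at day 4 and 1723 and 407 at day 8, with and without ROS. Each value that leaves out a sample comes from that joint fit of the remaining samples, so 2 choices differ from the reported value, and without a day 0 sample the spread comes from WT A and WT B alone. Without either day 0 sample, 0 genes were called against day 0 in any of these, and the members' differences were 1.82 to 2.11, 1.54 to 1.83, 2.63 to 2.92 and 1.71 to 2.00 for Ucp2, 6.31 to 6.64 for Ucp1 and 3.34 to 3.67 for Ucp3. Without WT A, 5375 and 4473 genes were called at day 4 against day 0 with and without ROS and 7490 and 5336 at day 8. Ucp2 at day 4 also lost its call with no minimum FPKM (1.97 with ROS, 1.68 without), and without ROS with a pseudocount of 0.01 (1.72), with summed transcripts (1.68) and without either WT sample (1.68). Ucp2 at day 8 without ROS lost it with a pseudocount of 0.01 (1.89) and with no minimum FPKM (1.86), and Ucp3 at day 8 with ROS with a pseudocount of 0.01 (5.96). When 1 day 0 sample was left out, Ucp3 against day 0 ranged from -0.022 (without day 0 sample 2) to 0.31 at day 4 with ROS and from -0.087 to 0.25 at day 8 without ROS, and a pseudocount of 0.01 gave 0.84 and 0.59. S265A against WT ranged from -1.55 (without WT B) to 0.12 (without WT A) for Ucp3, -1.19 to 0.78 for Ucp2 and -3.51 to 0.38 for Ucp1, and S265D against WT from -0.62 to 1.05, -1.05 to 0.91 and -1.35 to 2.53.

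Counts of genes past 2-fold fell with a minimum FPKM of 1, to 1529 from 2988 and 174 from 1022 for ROS at day 8 and day 4, 3428 from 5209 for day 4 against day 0 without ROS, 1073 from 2221 and 947 from 2167 for day 8 against day 4 with and without ROS, 502 from 1551 for S265A, 389 from 1365 for S265D and 1090 from 2401 for S265D-H1120Y against WT, 629 from 1765 for S265D against S265A, 957 from 2250 for S265D-H1120Y against S265D, 89 from 736 within day 0, 2521 from 4308 within WT and 2033 from 3579 for WT against untransduced cells. With WT A alone as control they were 2984, 3283 and 4089 for S265A, S265D and S265D-H1120Y. The mutant samples could not be paired with WT samples, because the labels give replicate letters to the WT samples only. A fit of the time course with the ROS arm of the labels as a block, day 0 samples included, was added after seeing the data. It averages each day over both arms and had 2 residual degrees of freedom. Ucp2 passed at day 4 (1.83, adjusted p = 0.0171, limma) and day 8 (2.32, adjusted p = 0.00831), Ucp1 (3.64) and Ucp3 (1.79) did not at day 8, Ucp1 at day 4 was 0.054 against the reported value without ROS below 0, and 5523 and 6988 genes were called. Depth limits Ucp1 and Ucp3 before day 8, where each sample holds 3 reads or fewer, and no interval here covers variation between cultures at day 8.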
